A study of Mus musculus with 2 samples.

Results

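The interferon regulatory factor (IRF) genes were examined in bulk RNA-seq of colonies that mouse mammary basal cells formed in 3D culture, with or without TNF-α. Irf1, Irf2, Irf3, Irf4, Irf5, Irf7, Irf8 and Irf9 were taken by name, and all 8 were found among the 49492 genes of the deposited count table. Basal cells were isolated by flow cytometry from the glands of adult female wild-type mice. The TNF-α library came from cells given recombinant mouse TNF-α at 10 ng/mL during 10 days of culture, and the control library from cells without treatment. The culture time of the control library is not stated separately in the sources used here, so equal times cannot be assumed. There was 1 library per group, and how many animals or cultures went into each is not given in the sources used here. No difference therefore has a replicate check and no test between the conditions was possible. The series' design text speaks of a microarray, but the deposited values are read counts. The control library held 44462275 counts and the TNF-α library 53487087.

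IRFs are transcription factors with a shared N-terminal DNA-binding domain that recognises GAAA repeats in the control regions of interferon and interferon-stimulated genes. IRF3 and IRF7 lie latent in the cytoplasm until kinases downstream of pathogen sensors phosphorylate them, and they then switch on type I interferon genes. IRF9 joins STAT proteins in the complex ISGF3, which carries the signal of the interferon receptor to the nucleus. IRF1 activates genes of antigen presentation and inflammation, IRF2 competes with it for the same sites, IRF5 acts in cytokine induction, and IRF4 and IRF8 are known chiefly from lymphoid and myeloid cells.

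Irf7 and Irf1 were the well counted IRF transcripts that stood more than 2-fold higher with TNF-α, Irf9 was higher by less than 2-fold, and Irf2, Irf3 and Irf5 lay close to the control level. Irf8 and Irf4 were close to the limit of detection in both libraries. The ratio of TNF-α to control was taken from counts scaled to library size by edgeR's TMM method (CPM, counts per 1000000 scaled counts), with a prior count of 2 added before log2. A gene was counted as higher or lower when this ratio passed 2-fold. The 95% intervals given for single genes are Clopper-Pearson intervals of the share of reads from the TNF-α library. They cover counting error only: reads copied by PCR do not each stand for a separate molecule, and variation from culture to culture is not in them. Even counts were in excess, so counts may not be independent of each other and the intervals may be too narrow. Of the 8 IRF genes, 7 reached 10 counts over the pair of libraries, and 3 of these 7 were more than 2-fold higher and 0 more than 2-fold lower. Among all 20771 genes with at least 10 counts, 8.56% were more than 2-fold higher and 6.62% more than 2-fold lower. Among the 13609 genes with at least 200 counts the shares were 4.01% and 2.87%, and of the 6 IRF genes at that depth 2 were higher and 0 lower. The median log2 ratio was 0.47 over the 7 IRF genes and 0.0038 over all genes compared. In bulk RNA from whole colonies, more cells that carry a transcript and more transcript per cell cannot be told apart.

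**Figure D1:**
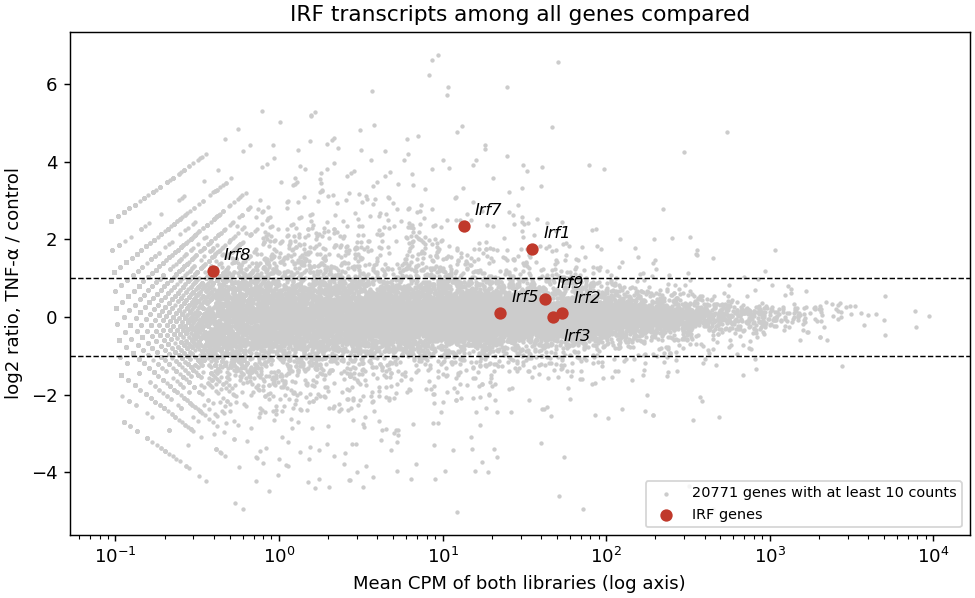
Each grey point is a gene, with its mean CPM over both libraries on a log axis and its log2 ratio of TNF-α to control on the vertical axis. Dashed lines mark 2-fold. Among the red IRF genes, Irf7 at 2.34 and Irf1 at 1.76 lie above the line at well counted levels, Irf8 at 1.19 lies above it among sparsely counted genes, and Irf9, Irf5, Irf2 and Irf3 lie between the lines.

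Irf1 is itself induced by cytokines in many cell types. It had 718 counts without treatment and 2923 with TNF-α, or 16.1 and 54.8 CPM. The TNF-α library was the higher one, with a log2 ratio of 1.76 (95% interval 1.65 to 1.89), which placed Irf1 at rank 721 of the 20771 genes. Irf2, the factor that competes with IRF1 for binding sites, had 2330 and 2973 counts, or 52.3 and 55.7 CPM. Its log2 ratio was 0.09 (95% interval 0.01 to 0.17), and the interval reached below 0, to -0.02, when the counts were halved. Per kilobase of exon, the level of Irf1 was 0.573 times that of Irf2 without treatment and 1.83 times with TNF-α. With the longest coding transcript as length these values were 0.360 and 1.15, and as CPM, with no length, they were 0.308 and 0.983. Irf1 thus stood below Irf2 in the control library on all 3 scales, and with TNF-α above it on both scales per length but not by CPM.

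The sequences before the start sites were read from RefSeq promoter windows of GRCm38.p6, which were found for all 8 genes (11 windows, because Irf1, Irf8 and Irf9 had a pair each). The 250 bases before each start site were searched on both strands for an IRF motif, GAAA followed after any 2 bases by GAAA again, for TTCNNNGAA, the GAS motif that STAT dimers recognise, and for the κB consensus of NF-κB. Among all 32851 windows of this length, 2.98% held the IRF motif, 7.02% the GAS motif and 3.9% the κB consensus. The first window of Irf1 held a GAS motif 90 bases before the start site and a κB consensus 13 bases before it. The window of Irf2 held an IRF motif 241 bases, a GAS motif 224 bases and a κB consensus 17 bases before the start site. The first window of Irf8 held 2 GAS motifs, 171 and 153 bases before the start site, and the windows of Irf3, Irf4, Irf5, Irf7 and Irf9 held none of the 3 motifs. Both windows of Irf9 and the second windows of Irf1 and Irf8 lie inside the gene as deposited, so for Irf9 the bases before its deposited first base were not searched. A match is a string of letters and not a bound site, and its part in any ratio was not tested. The stretches below show 100 bases of Irf1 (chr11:53769914-53770013, plus strand), Irf2 (chr8:46739495-46739594, plus strand) and Irf8 (chr8:120736178-120736277, plus strand) with motif matches in capitals, and the 100 bases before the annotated first base of Irf7 (chr7:141266482-141266581, minus strand) as the case without a match. They are written 5′ to 3′ in the direction of the gene, and the κB match of Irf2 lies outside the stretch shown.
Irf1: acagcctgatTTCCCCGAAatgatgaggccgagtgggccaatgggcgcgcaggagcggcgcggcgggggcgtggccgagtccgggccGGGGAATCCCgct
Irf2: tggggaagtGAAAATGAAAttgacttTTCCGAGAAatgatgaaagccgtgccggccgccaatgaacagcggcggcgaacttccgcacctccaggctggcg
Irf8: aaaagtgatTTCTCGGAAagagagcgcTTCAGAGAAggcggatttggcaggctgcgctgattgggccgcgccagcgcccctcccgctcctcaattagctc
Irf7: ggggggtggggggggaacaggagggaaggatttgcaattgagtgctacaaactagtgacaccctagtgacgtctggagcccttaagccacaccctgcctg

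Irf7, which amplifies the type I interferon response once induced, had the highest ratio of the family. It was counted 198 times without treatment and 1210 times with TNF-α, or 4.44 and 22.7 CPM. The TNF-α library was higher by a log2 ratio of 2.34 (95% interval 2.13 to 2.58), rank 395 of 20771, and this interval did not overlap that of Irf1. Irf3, the constitutive partner of Irf7 in interferon induction, had 2119 and 2531 counts, or 47.5 and 47.4 CPM. Its log2 ratio was -0.0035 with a 95% interval from -0.09 to 0.08 that held 0, so the 2 libraries could not be told apart for Irf3. Per length, Irf7 stood at 0.0852 of the Irf3 level in the control library and at 0.436 of it with TNF-α. The genes with at least 200 counts whose ratio was nearest to that of Irf7 were Gm11131 at 2.34, Rps23-ps2 at 2.34 and Gm26711 at 2.35. With 2 libraries this likeness means only a similar ratio, and Rps23-ps2 is named as a pseudogene whose reads may belong to its parent gene.

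Irf5, which acts downstream of Toll-like receptors, had 966 counts in the control library and 1251 with TNF-α, or 21.7 and 23.4 CPM. Its log2 ratio of 0.11 had a 95% interval from -0.01 to 0.24 that held 0. Irf9, the DNA-binding subunit of ISGF3, had 1586 and 2636 counts, or 35.6 and 49.4 CPM. The TNF-α library was higher by a log2 ratio of 0.47 (95% interval 0.38 to 0.56), below the 2-fold line. Stat2, which encodes a partner of IRF9 in ISGF3, had 617 and 1338 counts and a log2 ratio of 0.86 (95% interval 0.72 to 0.997). The intervals of Irf9 and Stat2 did not overlap, and Irf9 had the smaller ratio.

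Irf8, a factor of myeloid and B cells, had 10 counts in the control library and 30 with TNF-α, or 0.224 and 0.562 CPM. Its log2 ratio was 1.19, with a 95% interval from 0.25 to 2.52, and with halved counts (5 and 15) the interval ran from -0.21 to 3.14 and held 0. Irf4, a factor of plasma cells and activated lymphocytes, had 1 count in the control library and 4 with TNF-α, and it did not reach the 10 counts needed for comparison. The scaled ratio of these counts was 3.34 with a 95% interval from 0.331 to 165, so a difference was not detectable at this depth. Markers of leukocytes stood at similar levels in both libraries. Of 22 listed leukocyte genes 9 were compared, 0 of them passed 2-fold, 2 were above 0, and their median log2 ratio was -0.32. The shares over all genes compared were 8.56% more than 2-fold higher and 6.62% more than 2-fold lower. The sum of all 22 leukocyte genes was 28.0 CPM without treatment and 26.2 CPM with TNF-α. Its largest parts were S100a9, at 10.2 and 8.77 CPM, and Lcp1, at 8.57 and 10.0 CPM, so it rests mainly on these genes. The part of leukocyte genes in the Irf8 ratio was not tested. The defining T, B, plasmacytoid and natural killer cell genes Cd3d, Cd3e, Cd8a, Ms4a1, Siglech and Nkg7 were at 0 in both, and Ptprc, the pan-leukocyte gene, had 26 and 38 counts. The lowest and highest of the leukocyte genes compared were Cd79a at -0.60 and Ptprc at 0.27.

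**Figure D2:**
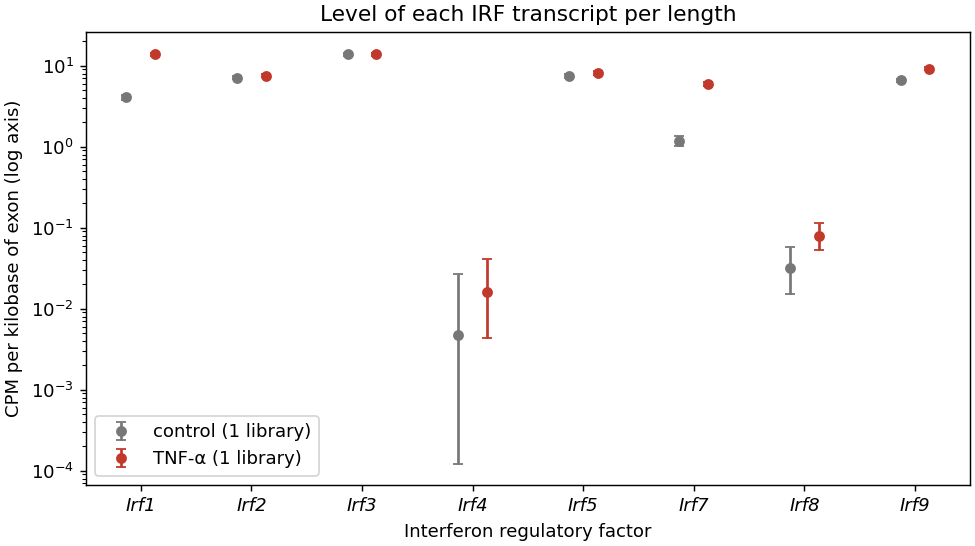
Points give the level of each IRF transcript in CPM per kilobase of summed exon length, on a log axis, for the control library in grey and the TNF-α library in red. Bars are exact 95% Poisson intervals of the count. Irf1 stands at 4.05 and 13.8 and Irf7 at 1.18 and 6.01, whereas Irf4 and Irf8 lie at or below 0.0797 in both libraries.

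Levels of different genes were compared per kilobase of the exon length in the deposited table. In the control library Irf3 was highest at 13.8 CPM per kilobase, followed by Irf5 at 7.46, Irf2 at 7.07, Irf9 at 6.61, Irf1 at 4.05, Irf7 at 1.18, Irf8 at 0.0318 and Irf4 at 0.0048. The counting intervals of Irf5 and Irf2, of Irf2 and Irf9, and of Irf8 and Irf4 overlapped, and the other neighbours in this order stood apart. In the TNF-α library Irf3 and Irf1 shared the top at 13.8, with overlapping intervals. Irf9 at 9.17, Irf5 at 8.07, Irf2 at 7.53 and Irf7 at 6.01 followed, then Irf8 at 0.0797 and Irf4 at 0.0159, and only the intervals of Irf5 and Irf2 overlapped among these neighbours. The intervals of levels take each count as separate and were not redone with halved counts. Neighbours that stood apart in either library may therefore overlap. Irf1 made up 10.1% of the summed IRF level per length in the control library and 23.6% with TNF-α, and Irf7 made up 2.93% and 10.3%. The share of Irf3 was 34.3% and 23.6% although its own level was nearly equal in both libraries. The sum over the 8 genes was 178 CPM without treatment and 254 CPM with TNF-α, and Irf1 and Irf7 together made up 74.6% of the summed increases.

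**Figure D3:**
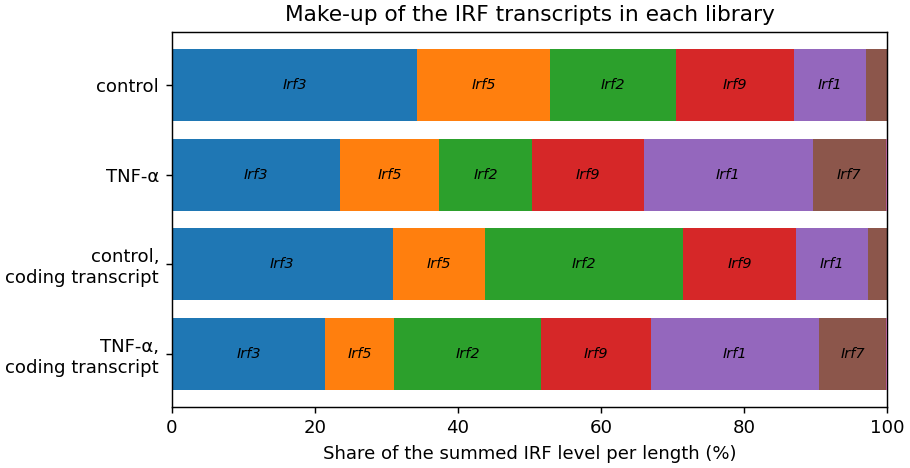
Each bar divides the summed IRF level per length of a library into its genes, in percent, with the deposited exon length in the upper pair and the longest coding transcript in the lower pair. The segments of Irf1 and Irf7 are wider with TNF-α under both lengths, at 23.6% against 10.1% and 10.3% against 2.93% in the upper pair.

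The deposited length of Irf7, 3776 bases, equals its whole span from first to last base, and 6 of its 13 GENCODE M21 transcripts are annotated with a retained intron. For Irf9, 83.4% of the span counted as exon, against 6.87% for Irf2. With the longest coding transcript as length, chosen after this was seen, the control order was Irf3, Irf2, Irf9, Irf5, Irf1, Irf7, Irf8 and Irf4. Irf1 then stood first with TNF-α at 25.6 CPM per kilobase, ahead of Irf3 at 23.4. The ratio between libraries does not depend on the length used.

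Several IRF genes overlap neighbours, and the sources used here do not say whether counting used the strand or what became of reads on shared bases. The coordinates are those of GRCm38, and 7 of the 8 genes had the same start and end as in GENCODE M21, Irf4 being the exception. Irf1 (chromosome 11, 53770014 to 53778374) shares 135 exonic bases, 3.4% of its length, with the antisense gene Gm17334. Gm17334 had 154 counts in the control library and 572 with TNF-α, a log2 ratio of 1.62 (95% interval 1.37 to 1.90) close to that of Irf1, and without strand the reads on the shared bases cannot be told apart. Irf7 (chromosome 7, 141262706 to 141266481) shares 45 bases with Phrf1, which had a log2 ratio of -0.10. Irf5 (chromosome 6, 29526625 to 29541871) shares 411 bases, 14.1% of its length, with Tnpo3, which had 3658 and 5375 counts and a log2 ratio of 0.30. Irf3 shares 88 bases with Bcl2l12 (log2 ratio 0.0015) and Irf9 shares 123 bases with Rnf31 (-0.12). Irf8 lies inside the span of Gm20388 without a shared exonic base. No exact stretch of 50 bases was shared between transcripts of any 2 of the 8 genes. Only exact matches were searched, so an exchange of reads that align with mismatches was not tested. Outside the family, the largest shares of such stretches were 11% for Irf5, with Tnpo3, and 1.82% for Irf9, with Rnf31 and other genes.

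The genes of the IRF2-binding proteins, corepressors of IRF2, had log2 ratios of 0.31 for Irf2bp1, -0.30 for Irf2bp2 and -0.48 for Irf2bpl, and 0 of the 3 passed 2-fold. All 3 had at least 200 counts, a depth at which 4.01% of all genes were more than 2-fold higher and 2.87% lower. Irf2bp2 shares 20.5% of its length with the antisense gene Gm26759 (109 and 78 counts).

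Upstream of the IRF proteins, sensors, adaptors and kinases that lead to their phosphorylation were in part higher with TNF-α. Of 22 listed genes, 6 were more than 2-fold higher and 0 lower, with a median log2 ratio of 0.62. Among all genes compared, 8.56% were more than 2-fold higher and 6.62% more than 2-fold lower. The highest was the nucleic acid sensor Zbp1, with 63 counts in the control library and 754 with TNF-α (log2 ratio 3.28, 95% interval 2.95 to 3.72). The sensor genes Dhx58 and Tlr2 followed among well counted genes, at 1.94 (121 and 564 counts) and 1.44 (296 and 967 counts). The RIG-I gene, listed as Ddx58, had 1810 and 4701 counts and a log2 ratio of 1.12, and Tmem173, which encodes STING, had 231 and 693 counts and a log2 ratio of 1.32. The kinase genes differed, with Ikbke at 0.99 (970 and 2303 counts) and Tbk1 at 0.26 (2802 and 4011 counts). The lowest was Mavs, the adaptor of RIG-I, at -0.38 (95% interval -0.51 to -0.26).

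Of 11 reported genes of interferon receptors, JAK kinases and STATs, 0 passed 2-fold, and the median log2 ratio was 0.48. All 11 had at least 200 counts, a depth at which 4.01% of all genes were more than 2-fold higher and 2.87% lower. A count of 0 of 11 is near these shares. Among the receptor genes Ifngr1 and Ifngr2 were at 0.96 and 0.76, Ifnar1 and Ifnar2 at 0.48 and 0.34, and the lowest of the list was Tyk2 at -0.07. Interferon genes themselves were near the limit of detection. Of 21 listed, 17 had 0 counts in both libraries, which allows up to 0.0673 CPM each in the control library and 0.0562 CPM with TNF-α (3 counts), and all 21 together had 6 counts without treatment and 8 with TNF-α. Ifnz, with 4 and 6 counts, was the one compared, at 0.23 (95% interval -1.75 to 2.59).

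Most of the genes listed as targets of ISGF3 and IRF1 were higher. The part of ISGF3 or IRF1 in their ratios was not tested. Among all genes compared, 8.56% were more than 2-fold higher and 6.62% more than 2-fold lower. Of 24 listed ISGF3 target genes, 20 were more than 2-fold higher and 0 lower, with a median log2 ratio of 2.44. They ran from 0.23 for Trim25, a ubiquitin ligase of the RIG-I pathway, to 4.30 for the antiviral synthetase gene Oas1a (12 and 324 counts). Ifi44 and Rtp4, both interferon-stimulated, were at 4.04 (28 and 585 counts) and 3.67 (41 and 650 counts), and Parp14 was the most counted of those past 2-fold, with 1283 and 7235 counts. Of 18 listed IRF1 target genes, 12 were more than 2-fold higher and 0 lower, with a median of 1.76. The chemokine gene Cxcl9 was highest at 4.34 (8 and 236 counts), followed among well counted genes by the adhesion molecule gene Vcam1 at 3.91 (439 and 7905 counts) and the GTPase gene Gbp2 at 2.42 (468 and 3015 counts). The cytokine gene Il15 was lowest at -0.55 (40 and 32 counts, 95% interval -1.30 to 0.13). The immunoproteasome genes Psmb8, Psmb9 and Psmb10 were at 2.10, 1.84 and 1.55, and the peptide transporter genes Tap1 and Tap2 at 0.89 and 0.97.

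Partner factors and brakes were more mixed, and the share of all genes compared that stood more than 2-fold higher was 8.56%. Of the 5 NF-κB subunit genes, Relb at 1.46 and Nfkb2 at 1.27 passed 2-fold, and Rela at -0.10 was lowest. All 5 had at least 200 counts, a depth at which 4.01% of all genes were more than 2-fold higher. Of 9 partner factors of IRF4 and IRF8, 8 were compared and 2 passed 2-fold, namely Batf at 1.22 (178 and 498 counts) and Batf3 at 1.22 with 4 and 14 counts, whose 95% interval from -0.12 to 3.61 held 0. Ikzf1 was lowest at -0.88 (256 and 165 counts), and Spi1, the myeloid partner of IRF8, had 18 and 27 counts. Of 10 genes that restrain IRF or interferon signalling, Tnfaip3, which encodes the NF-κB inhibitor A20, was the one past 2-fold, at 2.45 (743 and 4875 counts). Trim21, a ubiquitin ligase for IRF proteins, was at 0.97, and the feedback inhibitor Socs3 was lowest at -0.66. Socs1, the usual feedback inhibitor of interferon receptors, had 14 and 13 counts.

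**Figure D4:**
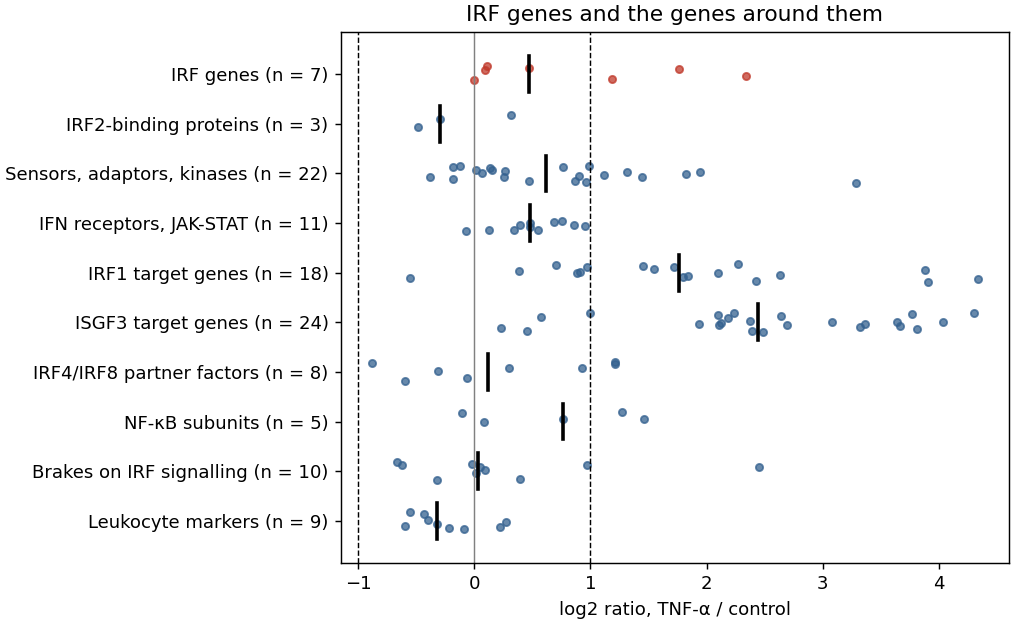
Each point is a gene that reached 10 counts over the pair of libraries, placed by its log2 ratio of TNF-α to control, with the list's median as a black bar and dashed lines at 2-fold. Of the cell type markers only the leukocyte list is drawn. The medians drawn run from -0.32 for leukocyte markers to 2.44 for ISGF3 target genes, and the IRF genes have a median of 0.47.

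The cell type markers moved with the treatment in part. Of 8 basal genes 0 passed 2-fold, with a median log2 ratio of 0.10, and they ran from -0.52 for Myh11 to 0.31 for Krt17. Myh11 stood at 2402 CPM without treatment and 1677 with TNF-α. The basal keratin gene Krt14 stood at 5155 CPM without treatment and 4871 with TNF-α, and Trp63 at 209 and 214, while the luminal keratin gene Krt8 was also present at 1213 and 1132 CPM. Of 11 luminal genes 3 were more than 2-fold lower, the hormone response genes Pgr at -1.54, Esr1 at -1.48 and Prlr at -1.15, with a median of -0.84 and Epcam highest at 0.29. Among all genes compared, 6.62% were more than 2-fold lower. At 200 counts or more, which all basal and luminal genes listed reached, 4.01% of all genes were more than 2-fold higher and 2.87% lower. The sum of the 11 luminal genes was 4456 CPM without treatment and 3564 CPM with TNF-α. Of 6 fibroblast genes Dcn was higher at 1.39 and Pdgfrb lowest at -0.93, with sums of 391 and 416 CPM, and 4 endothelial genes lay between -0.30 for Kdr and 0.22 for Cdh5, with sums of 7.07 and 6.67 CPM. The part of such shifts in the IRF ratios was not tested.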

How the data were processed

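The authors deposited 1 table of raw read counts per gene with exon coordinates and summed exon length. The labels name build GRCm38 (mm10). The aligner, counter and annotation are not given in the sources used here. The labels name a SMARTER mRNA-Seq kit. A count of 2 was met in 2172 control genes and a count of 1 in 618, so even counts were in excess and halved counts were tried as an alternative.

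TMM factors came from edgeR 4.0.16 under R 4.3.3, on genes with at least 10 counts summed. The scaled size with TNF-α was 1.20 times that of the control. A count of 10 was worth 0.224 and 0.187 CPM. Log2 ratios used a prior count of 2. With 1 library per group no quasi-likelihood test could be fitted, and no p-value is given. Intervals are 95% Clopper-Pearson (ratios) and exact Poisson (levels). The calculations were tested on simulated data with independent Poisson counts, which lack the excess of even counts seen here. That test could therefore not show whether the intervals are too narrow. Other steps ran in Python 3.11.15 with scipy 1.17.1 and pandas 2.3.3, and plots in matplotlib 3.10.9.

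The IRF genes and the 15 gene lists were chosen with earlier results of these data known, and no gene stood in more than 1 list. Some genes of the lists are not reported here and were left out of their counts and medians. Named genes are the IRF genes, the Irf2bp genes, overlapping genes, the highest and lowest of each list, up to 3 further list members past 2-fold with at least 200 counts, and the 3 genes nearest to Irf7 in ratio. The receptor, STAT, kinase, Psmb, Tap, Krt and Trp63 genes, Ddx58, Tmem173, Parp14, Spi1, Batf3, Socs1 and Trim21 and the markers at 0 were named after their values were seen. The same holds for S100a9 and Lcp1. Other settings tried were upper quartile scaling, size factors of DESeq2 1.42.0, unadjusted totals, other prior counts, filters and folds, and other lengths. Protein sequences were not used here, so the planned protein comparison was not run.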

Additional observations from a re-analysis of the deposited data

How the results depend on the processing

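No paired analysis was possible because each group had 1 library, and none could be left out. Over 8 alternatives of scaling, prior count, filter and read ends, all 55 values obtained for the 7 IRF genes compared lay within their counting interval. Filters cannot change the ratio of a single gene, and halving both counts changes it little, so this outcome was largely fixed beforehand. Irf7 ran from 2.33 to 2.35, Irf1 from 1.75 to 1.77, Irf9 from 0.46 to 0.47 and Irf8 from 1.02 to 1.29, the last with prior counts from 5 to 0.5. The number of IRF genes more than 2-fold higher was 3, except with at least 1 CPM in a library, where Irf8 was left out and it was 2. The median over the IRF genes was 0.67 with no filter, which lets in Irf4, and 0.29 with at least 1 CPM in a library, which leaves out Irf8. Of all genes, 1777 were more than 2-fold higher and 1375 lower. With no filter these were 2679 and 2996, with at least 1 CPM in a library 836 and 658 because sparsely counted genes drop out, and with a fold of 1.5 they were 3210 and 2846. The order of levels depended on the length: with raw counts 4 genes without treatment and 3 with TNF-α took another place, and with the coding transcript length, chosen after seeing the data, 3 and 5 did. The spread between cultures was not measured and limits every ratio given here.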
